A study of Homo sapiens with 6 samples.

Results

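RNA from 6 libraries of HEK293 cells was compared by replicate number: the 3 libraries numbered 1 against the 3 numbered 2, with the condition as a block. All 6 of the 6 libraries in the series enter this comparison. Each number holds 1 library of cells transfected with empty vector (EV), 1 of cells given guides against ZNF146 (sgZNF146) and 1 of cells given guides against ZNF507 (sgZNF507). HEK293 is an established, aneuploid line derived from human embryonic kidney that carries adenoviral sequence. All cells, the EV cells included, received the Cas9 plasmid PX459 by transient transfection, with 4 guides per gene or, for EV, with 0 guides. Puromycin was given for 36 h from the day after transfection, and the pools then grew out until 2 weeks had passed. No cloning step is described. Biological duplicates were taken, but nothing says that libraries sharing a number also shared a passage, a day or an RNA preparation. The numbers are therefore treated as labels whose meaning was checked in the data. Each p-value sets a difference against the spread left among these libraries once condition and number are fitted. It does not speak for further rounds of culture. An SD with n = 3 is taken over the 3 libraries of a number, which are 1 of each condition. Ribosome-depleted, strand-specific libraries were sequenced as paired reads of 50 nt.

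Several pathways named here follow the physical and nutritional state of a culture. YAP and TAZ are co-activators that the Hippo kinases hold in the cytoplasm when cells are crowded or rounded, and that act in the nucleus through TEAD factors when cells are spread and under tension. Serum response factor (SRF) drives actin and adhesion genes with the MRTF co-activators, which free actin monomers retain in the cytoplasm. SREBP factors, encoded by SREBF1 and SREBF2, raise genes of sterol and fatty acid synthesis when membrane sterols are low, and the replication-dependent histone genes are transcribed mainly in S phase into messengers that end in a stem-loop and carry no poly(A) tail.

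The files held between 22724439 and 28524025 counts per library, with no common direction between the numbers: the EV and sgZNF507 libraries numbered 2 were the deeper of their pairs and that of sgZNF146 the shallower. The 2 libraries of a pair differed by more than counting error: the chi-square statistic over genes was 7.04 times its degrees of freedom for EV, 10.7 times for sgZNF146 and 10.3 times for sgZNF507. The epithelial and neural markers of HEK293 were present (KRT8 at 60.1 to 77.5 CPM, counts scaled to the normalised size of the library, and CDH2 at means of 152 and 168 CPM). Of 14 markers of blood, endothelium, fibroblasts and liver, the summed level was 76.8 to 98.7 CPM in every library, mostly COL1A1, and the defining leukocyte genes PTPRC and CD3E had 1 to 5 and 0 to 1 counts. ZNF146 was at 115, 99.2 and 88.4 CPM in EV 1, sgZNF146 1 and sgZNF507 1 and at 105, 103 and 101 CPM in the libraries numbered 2, and its messenger does not report on indels. For ZNF507 the levels were 72, 71.3 and 47.2 CPM in EV 1, sgZNF146 1 and sgZNF507 1 and 75.5, 73.3 and 48.7 CPM in EV 2, sgZNF146 2 and sgZNF507 2. Both sgZNF507 libraries were therefore below the other 4, and neither targeted gene was called between the numbers (adjusted p of 0.728 for ZNF146 and 0.628 for ZNF507).

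The libraries separated by replicate number. In a principal component analysis of the 12999 genes with a mean of at least 100 counts, the first component held 41.9% of the variance and put EV 1 at -6.25, sgZNF146 1 at -4.95 and sgZNF507 1 at -12.8, against 8.38, 7.43 and 8.15 for EV 2, sgZNF146 2 and sgZNF507 2. The second component held 22% and separated both sgZNF507 libraries, at -8.78 and -6.94, from the other 4, which lay between 1.02 and 7.73.

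**Figure D1:**
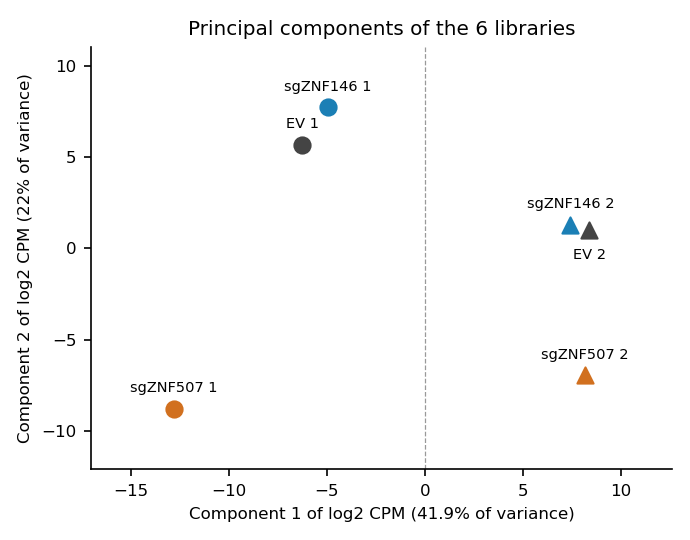
Scores of the 6 libraries on the first and second principal components of log2 CPM over 12999 genes; circles are libraries numbered 1, triangles those numbered 2, and colours mark the condition. The 3 circles lie left of 0 on component 1 (41.9% of the variance) and the 3 triangles right of it.

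Differences between number 2 and number 1 were related across conditions. Each condition gives a difference from its own 2 libraries, so the 3 differences share no library. Across the 12999 genes with a mean of at least 100 counts, Pearson's r was 0.414 between EV and sgZNF146, 0.457 between EV and sgZNF507 and 0.447 between sgZNF146 and sgZNF507. Over all 22010 genes tested it was 0.138, 0.176 and 0.145 in the same order. These are correlations across genes, which are not independent replicates, and the gene's length, GC content and level are common to the points. In 45.8% of the genes with at least 100 counts the difference had 1 sign in all 3 conditions, and in 39.6% of all genes tested.

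**Figure D2:**
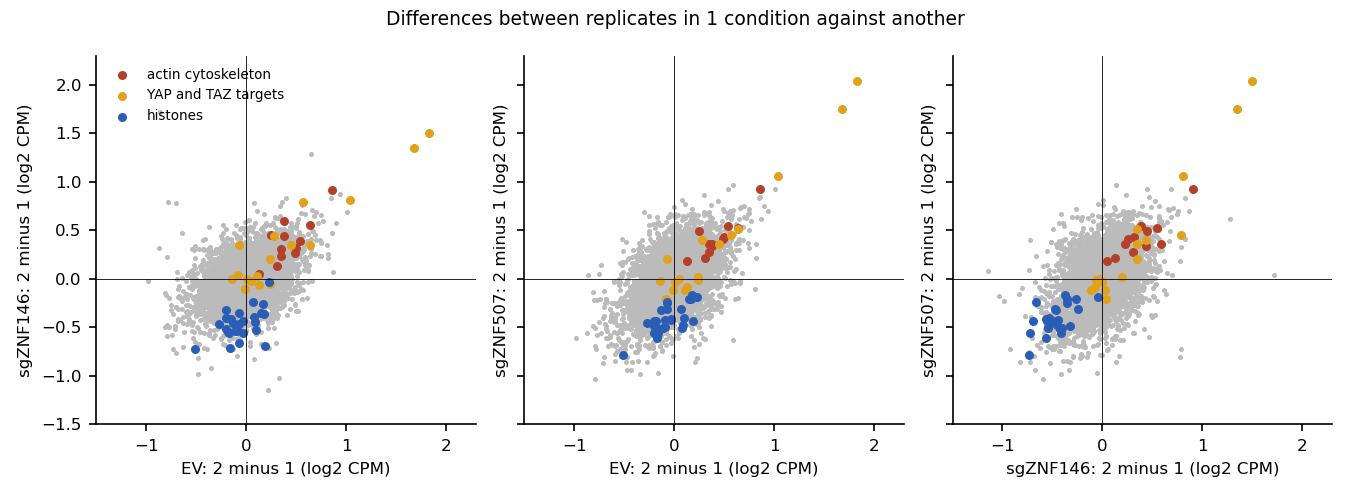
Difference between replicate 2 and replicate 1 (log2 CPM) in 1 condition against another, for 12999 genes in grey, of which 2 lie outside the axes, with the actin cytoskeleton (red), YAP and TAZ target (yellow) and histone (blue) lists. CCN2 and ANKRD1 are the 2 yellow points at 1.35 or more in every condition, while the histones lie near 0 in EV (list median -0.07) and below 0 in sgZNF146 (-0.46) and sgZNF507 (-0.44).

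In all, 1596 of 22010 genes tested (7.25%) passed an adjusted p of 0.05 in edgeR's quasi-likelihood test, 838 higher (3.81%) and 758 lower (3.44%) in the libraries numbered 2. With upper-quartile scaling the split moved to 680 higher and 976 lower, and with DESeq2 in place of edgeR 371 genes were called, all of them among the 1596. Most of the called differences were small, with a median absolute log2 fold change of 0.26. Past 1.5-fold there were 78 genes higher and 88 lower, and past 2-fold 29 higher and 24 lower. In 1441 of the called genes the 3 libraries of 1 number all lay above the 3 of the other, an order that 22.1% of all genes tested also had. Called genes were 9.6% of the 14744 protein-coding genes and 1.82% of the 3947 lncRNA genes, and 676 of the 5503 genes with the highest levels were called against 54 of the 5502 with the lowest. Among identifiers without a match in the annotation, 15 were higher and 32 lower; ENSG00000227184 had the third smallest p-value of all genes (log2 0.84, adjusted p of 9.77e-21). In RNA from whole cultures, fewer cells of a kind and less RNA per cell cannot be told apart.

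**Figure D3:**
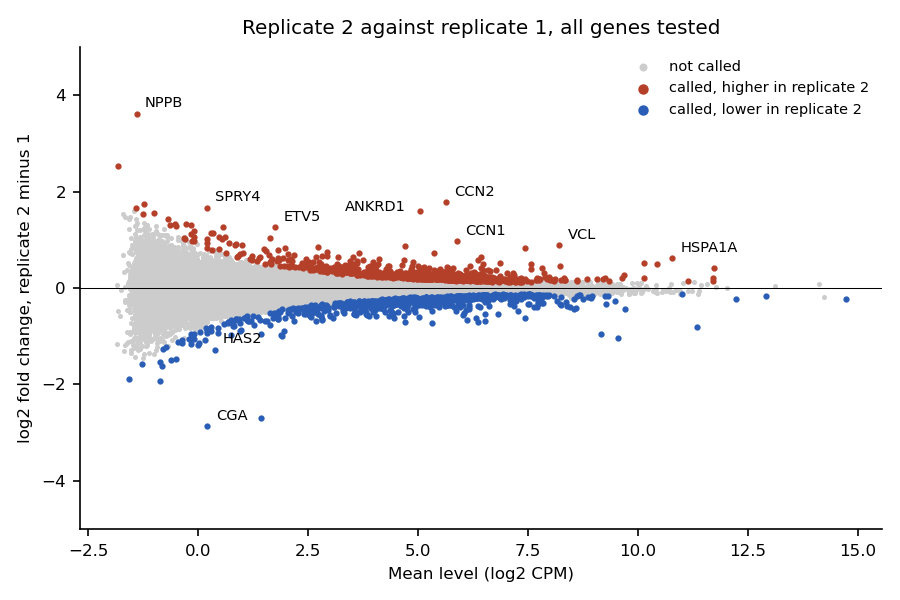
log2 fold change between replicate 2 and replicate 1 against mean level (log2 CPM) for the 22010 genes tested, with 838 called higher (red) and 758 called lower (blue). CCN2, ANKRD1, CCN1 and VCL stand above genes of like level, and CGA and HAS2 are low-level genes that were lower in replicate 2.

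The 2 genes with the smallest p-values, CCN2 and ANKRD1, are targets of YAP and TAZ. CCN2, which encodes a matrix-associated growth factor-like protein and is the most used reporter of YAP activity, lies on the minus strand of chromosome 6 (GRCh37 132269316 to 132272512). It was at 22.6, 27.1 and 17 CPM in EV 1, sgZNF146 1 and sgZNF507 1 and at 80.7, 76.8 and 70 CPM in EV 2, sgZNF146 2 and sgZNF507 2. The ranges did not overlap, and every condition showed the difference, at 1.83, 1.5 and 2.04 on the log2 scale; the fitted fold was 3.43 (log2 1.78 ± 0.06 SE, adjusted p of 1.06e-25). ANKRD1, a nuclear and sarcomeric ankyrin repeat protein (chromosome 10, 92671853 to 92680844, minus strand), was at 16.7, 18.6 and 13.8 CPM in the libraries numbered 1 and at 53.5, 47.5 and 46.3 CPM in those numbered 2, in the order EV, sgZNF146, sgZNF507. Its fold was 3.01 (log2 1.59 ± 0.07 SE, adjusted p of 6.39e-23), again with no overlap. CCN1, the close relative of CCN2 (chromosome 1, 86046444 to 86050272, plus strand), was at 43.1, 41.8 and 34.2 CPM against 88.5, 73.2 and 71.4 CPM, with a log2 fold change of 0.97 ± 0.05 SE and an adjusted p of 6.81e-19.

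Every gene list here and below was chosen with earlier results of these data known, so each share describes its list. Of the 20 YAP and TAZ targets tested, 7 were called higher and 0 lower (35% called, against 7.25% of all genes tested), while the median of the list was 0.05 against 0 for all genes. AMOTL2, a scaffold that binds YAP and feeds back on it, was at 73.7 ± 4.07 CPM in replicate 1 and 104 ± 6.86 CPM in replicate 2 (SD, n = 3; log2 0.50, adjusted p of 8.64e-11). The other 3 called members, named here after their values were seen, were CRIM1, AJUBA and MYOF, with log2 fold changes of 0.37, 0.39 and 0.60. Among the 13 members not called were AXL (-0.10), LATS2 (0.01), AMOTL1 (-0.01) and PTPN14 (-0.06). The list split into called members at 0.37 or more and members at 0.17 or less. Without any single library 7 were still called higher, and DESeq2 called 6 of the 17 members it gave an adjusted p.

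Promoter windows of the leading pair are shown because both hold the letters that TEAD factors recognise. RefSeq windows (GRCh38.p14; 250 bases before to 50 after the start) were searched for GGAATG on either strand. The 250 bases before the start are printed 5′ to 3′ on the gene's strand, with each GGAATG in capitals, for CCN2 (chr6:131951373-131951622, minus strand) and ANKRD1 (chr10:90921088-90921337, minus strand).
CCN2: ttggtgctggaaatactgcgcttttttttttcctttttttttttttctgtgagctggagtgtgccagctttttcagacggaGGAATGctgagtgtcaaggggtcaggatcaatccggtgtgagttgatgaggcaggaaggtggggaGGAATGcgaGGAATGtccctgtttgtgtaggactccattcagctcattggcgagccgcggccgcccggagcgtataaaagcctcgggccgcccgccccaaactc
ANKRD1: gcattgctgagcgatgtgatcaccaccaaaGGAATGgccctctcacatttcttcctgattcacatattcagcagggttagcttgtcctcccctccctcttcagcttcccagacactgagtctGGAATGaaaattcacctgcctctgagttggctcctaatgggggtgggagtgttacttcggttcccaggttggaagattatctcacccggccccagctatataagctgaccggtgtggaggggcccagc
The CCN2 stretch holds 3 matches, beginning 169, 104 and 95 bases before the start, and that of ANKRD1 holds 2, at 220 and 128 bases. Of the 16 list members with a window, 9 (56.2%) held the letters, and 4 of the 5 called members with one did, against 15.1% of the 13157 tested genes that have a window. The list was assembled from known TEAD-dependent genes, so the share describes the list. A match is a match of letters and no evidence of binding, and a gene with more windows has more chances of one (1.19 windows per gene in the list, 1.44 over the tested genes).

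Genes of the actin cytoskeleton were higher in replicate 2. Of the 14 tested, 11 were called higher and 0 lower (78.6%, against 7.25% of all genes), with a median log2 fold change of 0.39, and a median within EV of 0.37, within sgZNF146 of 0.32 and within sgZNF507 of 0.38. VCL encodes vinculin, which couples integrin adhesions to actin (chromosome 10, 75754951 to 75881121, plus strand). It was at 209, 212 and 201 CPM in EV 1, sgZNF146 1 and sgZNF507 1 and at 378, 398 and 379 CPM in EV 2, sgZNF146 2 and sgZNF507 2. The spread within a number was far smaller than the step between numbers, and the fold was 1.86 (log2 0.89 ± 0.05 SE, adjusted p of 2.57e-20). TPM1, a tropomyosin that lines actin filaments, was at 63.8, 68.5 and 66.5 CPM against 99.7, 100 and 95.7 CPM (log2 0.57 ± 0.05 SE, adjusted p of 3.92e-13).

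The actin crosslinker FLNA was at 1140 ± 30.5 CPM in replicate 1 and 1610 ± 53.4 CPM in replicate 2, and the cytoplasmic gamma-actin ACTG1 at 2900 ± 100 and 3870 ± 162 CPM (SD, n = 3 each; log2 0.49 and 0.42, adjusted p of 1.35e-11 and 1.8e-10). The other 7 called members ran from ACTB at 0.22 to TPM2 at 0.44. CALD1 (0.12), ACTA2 (0.33) and CNN1 (-0.28) did not pass, the last 2 at 1.35 to 4.19 CPM on average. Without any single library 10 to 12 of the 14 were called higher, and DESeq2 called 8 of 13.

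SRF itself was higher. It was at 114, 121 and 114 CPM in the libraries numbered 1 and at 149, 142 and 144 CPM in those numbered 2, with no overlap (log2 0.32 ± 0.04 SE, adjusted p of 7.38e-07). Its cofactor genes MRTFA (0.01) and MRTFB (-0.06) were not called. A list of 18 Hippo pathway and SRF factors was put together after values were seen. Of these 22.2% were called, against 7.25% of all genes, with SRF alone higher and 3 lower: WWTR1, which encodes TAZ (-0.24, adjusted p of 0.00856), TEAD2 (-0.23, 0.0217) and AMOT (-0.27, 8.72e-05). YAP1 was at -0.11 (adjusted p of 0.159), and TEAD1, TEAD3, TEAD4, LATS1, LATS2, STK3, STK4, SAV1 and NF2 were within 0.08 of 0 and not called.

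The promoters of SRF, ACTG1 and FLNA are printed since they hold a CArG box, the element bound by SRF, which was searched for on both strands and reads the same on each. These are the 120 bases before the start (RefSeq, GRCh38.p14), with each CArG box in capitals, for SRF (chr6:43171149-43171268, plus strand), ACTG1 (chr17:81512800-81512919, minus strand) and FLNA (chrX:154374635-154374754, minus strand).
SRF: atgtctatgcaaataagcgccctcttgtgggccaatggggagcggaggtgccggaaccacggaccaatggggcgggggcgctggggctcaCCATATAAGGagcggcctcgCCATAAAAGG
ACTG1: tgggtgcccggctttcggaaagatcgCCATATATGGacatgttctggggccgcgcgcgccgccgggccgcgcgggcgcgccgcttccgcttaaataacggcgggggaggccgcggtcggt
FLNA: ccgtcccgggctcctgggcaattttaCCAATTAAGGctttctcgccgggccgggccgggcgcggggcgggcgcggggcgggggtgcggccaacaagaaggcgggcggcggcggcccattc
SRF holds 2 boxes, beginning 30 and 10 bases before its start, and ACTG1 and FLNA hold 1 each, both at 94 bases. A box was found for 6 of the 12 actin list members with a window, and for 6 of the 9 called ones, against 1.56% of the 13157 tested genes with a window. VCL and TPM1, the members described first, had 0 boxes in their windows, and SRF is not a member of the list. Members of the list had 2.75 windows per gene against 1.44, and the list holds known SRF targets, so the share is again a description.

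Focal adhesion genes, also listed after values were seen, had 12 of 25 called higher and 0 lower, against 3.81% of all genes called higher, with a median of 0.16. VCL, counted among the actin genes too, is 1 of the 12. ZYX, which encodes the mechanosensitive adhesion protein zyxin, was at 157 ± 10.9 and 221 ± 10.4 CPM (log2 0.49, adjusted p of 1.74e-12). FERMT2, PDLIM7, CSRP1 and WDR1 were between 0.42 and 0.49, and MYH9, the heavy chain of non-muscle myosin II, was at 0.27. Talin, paxillin and integrin beta-1 genes were not called, with TLN1 at -0.06, PXN at -0.01 and ITGB1 at 0.04.

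**Figure D4:**
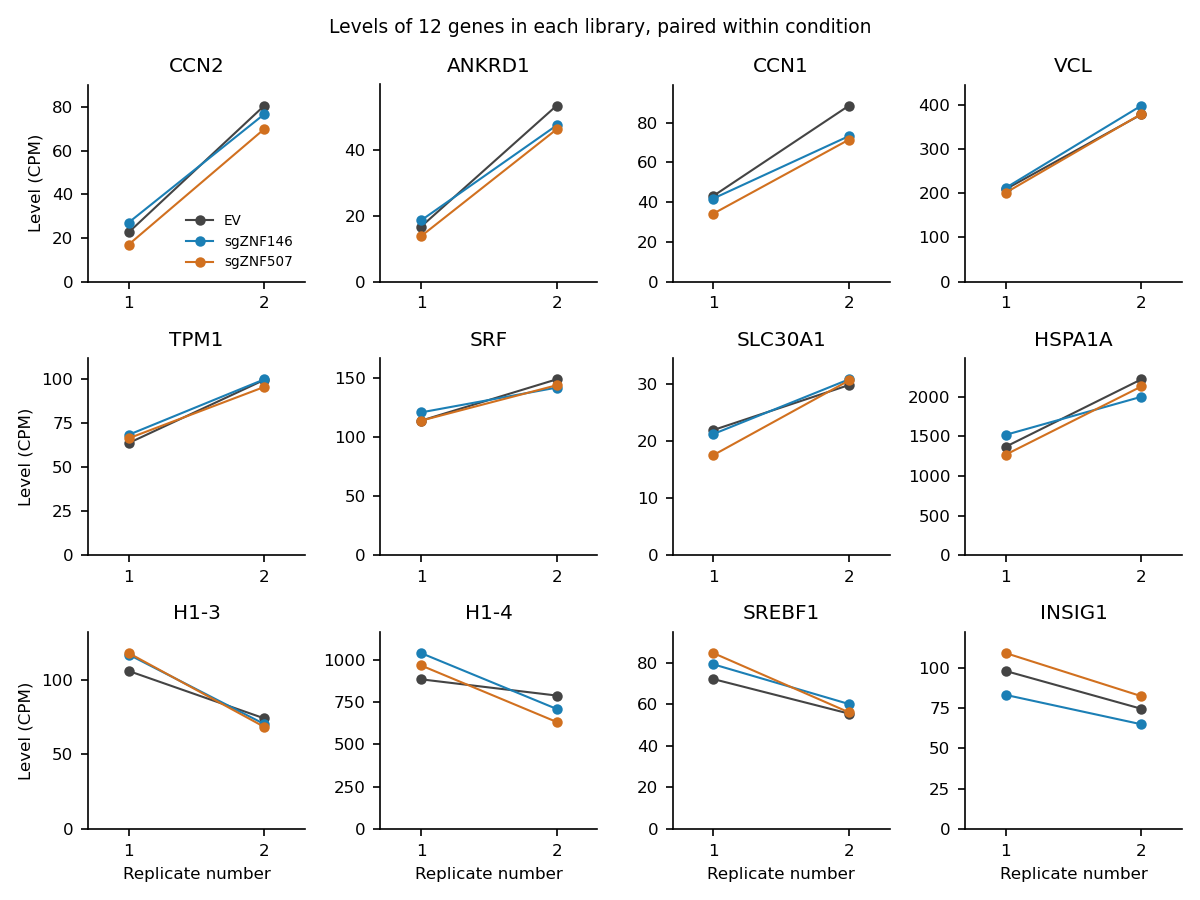
Level (CPM) of 12 genes in each library, with the 2 libraries of a condition joined by a line; axes start at 0. The 8 genes from CCN2 to HSPA1A are higher in replicate 2 in all 3 conditions and H1-3, H1-4, SREBF1 and INSIG1 lower.

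Among 23 immediate early and serum response genes, 5 were called higher and 2 lower (30.4%, against 7.25% of all genes), with a median of 0.07. DUSP1, a phosphatase that switches off MAP kinases, was at 67.6, 67 and 66.5 CPM in the libraries numbered 1 and at 111, 99.4 and 103 CPM in those numbered 2 (log2 0.64 ± 0.05 SE, adjusted p of 1.02e-14). JUN, an AP-1 subunit, was at 251 ± 8.47 and 346 ± 10.3 CPM (log2 0.46, adjusted p of 2.08e-10). SPRY4, an inhibitor of growth factor signalling, was at 0.442, 0.552 and 0.477 CPM against 2.1, 1.43 and 1.21 CPM (log2 1.67 ± 0.29 SE, adjusted p of 7.12e-05). In the other direction, the orphan nuclear receptor NR4A1 was at 37.2, 33.9 and 36.8 CPM against 25.8, 24.8 and 26 CPM (log2 -0.49 ± 0.06 SE, adjusted p of 1.13e-07). The classic early genes FOS (-0.01), EGR1 (-0.02), FOSB (0.08) and MYC (0.07) were not called. ETV5, an ETS factor downstream of fibroblast growth factor signalling, was at 1.97, 1.69 and 2 CPM against 5.24, 3.86 and 4.56 CPM (log2 1.27 ± 0.16 SE, adjusted p of 1.04e-07). ETV4 and ETV1 were at 0.89 and 0.42 and called. These genes belong to a list of 11 ETS and sprouty genes drawn up after values were seen. In it 4 were called higher, SPRY4 among them, and 0 lower (36.4%, against 3.81% of all genes called higher). The members not called were SPRY1 (0.10), SPRY2 (0.12), SPRED1 (0.14), SPRED2 (0.11), SPRED3 (-0.13), DUSP4 (0.23) and DUSP6 (0.42).

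Of 8 metallothionein and zinc genes listed, 5 were tested, and 3 of those were called higher and 0 lower. That was 60%, against 3.81% of all genes called higher, and the median of the 5 was 0.59. The zinc exporter SLC30A1 was at 22, 21.3 and 17.6 CPM against 29.9, 30.9 and 30.7 CPM (log2 0.59 ± 0.07 SE, adjusted p of 3.56e-08). MT1X, a metal-binding metallothionein, was at 5.66, 6.07 and 4.9 CPM against 10.6, 9.06 and 8.29 CPM (log2 0.75 ± 0.11 SE, adjusted p of 2.63e-06), and MT1F had a log2 fold change of 0.84. The more abundant MT2A (0.13, adjusted p of 0.374) and the metal-sensing factor MTF1 (-0.01) were not called. The metallothioneins are close copies of each other, and reads shared between them could be split by the counting.

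Of 18 heat shock and chaperone genes, 2 were called, both inducible HSP70 genes. HSPA1A was at 1370, 1520 and 1270 CPM against 2220, 2000 and 2130 CPM (log2 0.62 ± 0.05 SE, adjusted p of 2.09e-13). HSPA1B, whose coding sequence is nearly identical, was at 0.52 and lost its call in DESeq2 (adjusted p of 0.271), and how reads were divided between them is uncertain. DNAJB1 (-0.07), HSPH1 (-0.02) and HSPB1 (-0.07) did not pass, and the list median was -0.05. The unfolded protein response had 2 of 21 called higher (9.52%), the interferon-stimulated genes 2 of 32 (6.25%) and ribosome biogenesis 1 of 20 (5%), shares close to the 7.25% of all genes.

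Replication-dependent histone genes were lower. Of 31 tested, 23 were called lower and 0 higher (74.2%, against 3.44% of all genes called lower), with a median of -0.31. The list medians differed between conditions, without a test of that difference: the median was -0.07 in EV, with 20 of 31 members lower, and -0.46 in sgZNF146 and -0.44 in sgZNF507, with 29 of 31 lower in each. H1-3, a linker histone in the histone cluster of chromosome 6 (26234440 to 26235215, minus strand), was at 106, 117 and 118 CPM in EV 1, sgZNF146 1 and sgZNF507 1 and at 74.2, 70.4 and 68.5 CPM in EV 2, sgZNF146 2 and sgZNF507 2. Those ranges did not overlap (log2 -0.68 ± 0.05 SE, adjusted p of 5.62e-15). H1-4 was at 885, 1040 and 967 CPM against 789, 710 and 633 CPM (log2 -0.45 ± 0.05 SE, adjusted p of 4.44e-08), and the core histone gene H4C8 was at 224 ± 18.6 and 172 ± 17.9 CPM (SD, n = 3; log2 -0.39). H2BC21 (0.00), H2AC21 (-0.10) and H2AC11 (-0.12) were not called.

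Taken as a share of all counts, these histones were 0.636% ± 0.0409 in replicate 1 and 0.518% ± 0.0389 in replicate 2 (SD, n = 3), a difference whose exact permutation p of 0.25 (two-sided, numbers exchanged within conditions) is the smallest that 8 sign patterns can give. Many histone genes are near-copies, so single members are less certain than the group. DESeq2 called 7 of the 27 members it gave an adjusted p.

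Other short or non-polyadenylated RNAs were called lower at shares nearer to the 3.44% of all genes. Of 58 spliceosomal snRNA genes tested 5 were called lower and 0 higher (8.62%), with a median of -0.23. Of 53 box C/D snoRNAs 2 were lower (3.77%, median -0.07), and of 77 box H/ACA snoRNAs and scaRNAs 3 were lower (3.9%, median -0.08), both close to the share over all genes. Both medians were lower in EV only. In EV, sgZNF146 and sgZNF507 they were -0.36, 0.07 and 0 for box C/D and -0.21, 0.01 and 0.01 for box H/ACA. All small RNA genes together had 2 called higher and 13 lower of 664. RN7SL3, a copy of the 7SL RNA of the signal recognition particle, was named after its values were seen. It was at 3810, 2750 and 3450 CPM against 2210, 1820 and 1670 CPM (log2 -0.81, adjusted p of 3.49e-17), whereas RN7SL2 was at 0.08 and RN7SK at -0.19 and neither was called. The part of RNA preparation in the histone difference was not tested.

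Cell cycle genes were called at 13.3% and 14.8% of the members of their lists, against 7.25% of all genes in either direction. The share called rose with level, to 12.3% of the 5503 genes with the highest levels. Both list shares were near that value, and the lists were not matched for level. Of 30 S phase and DNA replication genes, 4 were called lower and 0 higher: HELLS, CHAF1A, SLBP and CDT1, at -0.16, -0.15, -0.14 and -0.13. SLBP binds the stem-loop of histone messengers. Without sgZNF146 1 or sgZNF146 2, and in DESeq2, 0 of these were called. Of 27 G2 and mitosis genes 4 were called higher and 0 lower, with UBE2C at 0.21, ANLN and CENPE at 0.19 and TOP2A at 0.17, and 2 were called without any single sgZNF146 or sgZNF507 library. MKI67, the common proliferation marker, was at 653 ± 39.1 and 675 ± 25.5 CPM (adjusted p of 0.628).

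**Figure D5:**
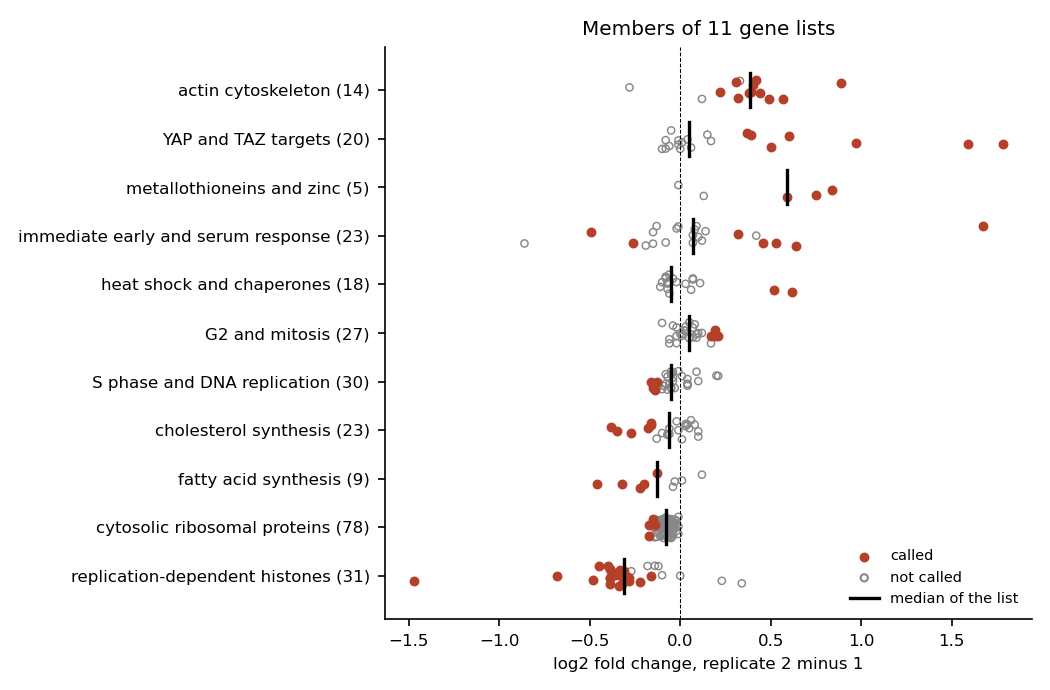
log2 fold change between replicate 2 and replicate 1 of every tested member of 11 gene lists (number of members in brackets); filled red points were called, open points not, and the black bar is the list's median, at 0.39 for actin cytoskeleton and -0.31 for replication-dependent histones. Vertical scatter within a row has no meaning.

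In fatty acid synthesis 5 of 9 genes were called lower and 0 higher (55.6%, against 3.44% of all genes called lower), with a median of -0.13. SREBF1, whose SREBP-1 product drives lipogenic genes (chromosome 17, 17713713 to 17740316, minus strand), was at 72.1, 79.2 and 84.6 CPM in the libraries numbered 1 and at 55.5, 60.1 and 56.1 CPM in those numbered 2 (log2 -0.46 ± 0.05 SE, adjusted p of 3.89e-09). ELOVL6, which elongates long-chain fatty acids, was at 37.5 ± 1.91 and 30.1 ± 1.74 CPM (log2 -0.32, adjusted p of 0.00037), and the desaturase SCD at 464 ± 4.37 and 398 ± 18 CPM (log2 -0.22, adjusted p of 0.000972). FASN, the fatty acid synthase, was at -0.13 and ACLY (-0.03) was not called.

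In cholesterol synthesis 6 of 23 were called lower and 0 higher (26.1%, against 3.44% of all genes called lower), with a median of -0.06. INSIG1, which retains the SREBP escort protein in the endoplasmic reticulum and is itself an SREBP target (chromosome 7, 155089486 to 155101945, plus strand), was at 97.9, 83.1 and 109 CPM against 74.5, 64.9 and 82.3 CPM (log2 -0.38 ± 0.04 SE, adjusted p of 2.23e-08). HMGCS1 and DHCR7 were at -0.18 and -0.16, and the factor SREBF2 (0.03) was not called. Without sgZNF146 1 or sgZNF146 2, and in DESeq2, 2 of the 23 were called.

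Stress and metabolic lists gave calls in both directions, against 7.25% of all genes called. In the ATF4 stress response 2 of 28 were higher and 4 lower: the factor ATF3 was at 42.4 ± 1.78 and 53.3 ± 1.18 CPM (log2 0.33, adjusted p of 2.39e-05) and the secreted hormone gene STC2 at 59.6 ± 4.3 and 47.1 ± 2.49 CPM (log2 -0.34, adjusted p of 8.01e-06). HMOX1, the haem oxygenase, was at 110 ± 11.2 and 85 ± 11 CPM (log2 -0.38, adjusted p of 5.36e-08) and was 1 of 2 lower among 13 NRF2 targets. Glycolysis and hypoxia had 4 of 33 called higher and 0 lower (12.1%), near the 12.3% called among the 5503 genes with the highest levels. In 10 of the 33 all libraries numbered 2 lay below those numbered 1, and in 4 above. Over all 22010 genes these orders held for 2290 and 2565. With limma voom 4 members were called higher and 6 lower. The list median was -0.03, and hexokinase HK2 and the glucose transporter SLC2A1 led the higher calls, both at 0.23. Of 20 p53 targets, BBC3 (-0.34) and CDKN1A (-0.28) were lower, and without sgZNF507 1 or sgZNF507 2 the list had 0 called. Extracellular matrix genes split into 3 higher and 2 lower of 20, with THBS1 at 0.79 and COL9A3 at -0.40. The split was 1 and 1 without the condition block, and DESeq2 called 0 of 17. COL9A3 lost its call in DESeq2 and without sgZNF146 1 or sgZNF146 2, with adjusted p of up to 0.309.

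Cytosolic ribosomal protein genes had a small shift, least in EV. Their median was -0.02 in EV, with 27 members higher and 49 lower, and -0.11 in sgZNF146 and -0.10 in sgZNF507. Of 78 tested, 5 were called lower and 0 higher (6.41%, against 3.44% of all genes called lower), and the fitted median was -0.08. In 25 of the 78 all 3 libraries numbered 2 lay below those numbered 1, an order that 2290 of all 22010 genes had in that direction. RPL24 and RPL13A were both at -0.17. The calls ranged from 0 without sgZNF507 1 or sgZNF507 2 to 16 without EV 2. Nuclear genes of the respiratory chain had 1 called higher and 5 lower of 81 (7.41%, close to the 7.25% of all genes), with a median of -0.04.

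Mitochondrial ribosomal RNAs did not follow the number. MT-RNR1 was at 1550, 133 and 944 CPM in EV 1, sgZNF146 1 and sgZNF507 1 and at 1670, 158 and 50.9 CPM in EV 2, sgZNF146 2 and sgZNF507 2. MT-RNR2 was at 1150, 128 and 709 CPM against 1210, 158 and 50.3 CPM. Both passed the test (log2 -1.04 and -0.96, adjusted p of 0.0489 and 0.0425) only through the sgZNF507 pair: without sgZNF507 1 or sgZNF507 2 the log2 values were 0.18 and 0.17, with adjusted p of 0.0444 to 0.0506. The deposited counts come after a step that removes reads of ribosomal RNA, and its part in these levels was not tested. Of 13 mitochondrial messengers 2 were called higher and 1 lower (23.1%, against 7.25% of all genes), and their groups overlapped in all 3.

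Beside CCN2 and ANKRD1, most protein-coding genes named for the size of their change had few counts. NPPB, which encodes a natriuretic peptide, had 3 counts over the libraries numbered 1 and 44 over those numbered 2, a ratio, scaled to library totals, of 13.3 with an exact 95% interval of 4.26 to 66.9 that covers counting error only. It was at 0 counts in EV 1 and sgZNF507 1, and its fitted log2 value of 3.62 became 6.7 without sgZNF146 1 or sgZNF146 2, a size that depends on those zeros. CGA, the common alpha subunit of glycoprotein hormones, had 145 and 22 counts, a ratio of 0.137 (0.0835 to 0.216), and was at 2.25, 1.42 and 2.3 CPM against 0.145, 0.358 and 0.311 CPM (log2 -2.87 ± 0.32 SE, adjusted p of 5.34e-09). The lysosomal protease gene CTSO was at 0.806 ± 0.363 and 1.94 ± 0.247 CPM (log2 1.27). HAS2, a hyaluronan synthase, was at 1.76 ± 0.158 and 0.73 ± 0.215 CPM (log2 -1.28), the proto-oncogene MYCN at 0.754 ± 0.103 and 0.247 ± 0.127 CPM (log2 -1.61) and NANOS3, a germ cell gene, at 0.863 ± 0.203 and 0.304 ± 0.0619 CPM (log2 -1.49). MYCN lost its call without EV 1, EV 2 or sgZNF507 1 and NANOS3 without sgZNF507 1 or sgZNF507 2, with adjusted p of up to 0.111 and 0.058.

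The remaining protein-coding genes named by size of change were at 0.138 to 1.43 CPM on average. Higher were COL5A3 (1.31), a fibrillar collagen chain, TGFBI (1.13), a secreted matrix protein, CMPK2 (1.44), a mitochondrial nucleotide kinase induced by interferon, FAM78B (1.33), TAPBPL (1.06), a relative of the peptide-loading protein tapasin, and ENSG00000261915 (1.65), which overlaps GPS2 and NEURL4 on its own strand. Lower were AOX1 (-1.54), an aldehyde oxidase, PCK1 (-1.14), a key enzyme of gluconeogenesis, GRIN2B (-1.16), a glutamate receptor subunit, TOX (-1.08), SPEM1 (-1.19) and EVA1C (-1.07). Also lower were H1-6 (-1.47), which overlaps H2BC4 (264 CPM) on its own strand, and CCDC183 (-1.06), which so overlaps ENSG00000273066 (5.55 CPM). Of these 14, SPEM1 and TOX kept their calls without any single library. Of the non-coding genes, MIR4461 (1.29) and snoU13 (1.75) lie within PCBD2 and PRKCSH on the same strand, and reads of the host gene could be counted for them. MIR4461 lost its call in 6 of 13 alternatives, among them the fits without any 1 sgZNF146 or sgZNF507 library, with log2 values of 0.81 to 2.15 and adjusted p of up to 0.332. The gene snoU13 lost its call without any 1 EV or sgZNF507 library, with adjusted p of up to 0.212.

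Of 16 retinoid genes listed after values were seen 14 were tested, and 5 of those were called lower and 0 higher, against 3.44% of all genes called lower, with a median of -0.20. RARB, a retinoic acid receptor and target, was at 4.82, 5.16 and 4.9 CPM against 1.92, 3.66 and 2.55 CPM (log2 -0.89 ± 0.15 SE, adjusted p of 5.24e-05). DHRS3, a retinaldehyde reductase, was at 8.58 ± 0.934 and 5.45 ± 1.06 CPM and CRABP2, which carries retinoic acid to its receptors, at 9.46 ± 0.175 and 6.44 ± 0.618 CPM (log2 -0.66 and -0.56). The retinoic acid hydroxylases CYP26A1 (-0.22), CYP26B1 (0.09) and CYP26C1 (0.02) were not called, nor were RDH10 (0.05) and TGM2 (-0.01). Notch genes, likewise listed afterwards, had 2 higher and 4 lower of 22, against 7.25% of all genes called in either direction: the receptor NOTCH3 (-0.31), the ligand JAG2 (-0.37), NRARP (-0.35) and MAML2 (-0.47) were lower and the target factors HES1 (0.18) and HEY1 (0.20) higher.

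The HEK293 markers KRT8 (0.18), CDH2 (0.15) and KRT18 (0.15) were called higher, 3 of 11 (27.3%, against 3.81% of all genes called higher), and none was called in DESeq2 (0 of 11). KRT8 and KRT18 overlap on opposite strands, as do SREBF1 and RAI1, and whether the counting used strand is not given in the sources used here. CD14 was the 1 marker of another cell type called, at 26, 30 and 25 counts against 13, 17 and 13 counts. No chromosome stood apart, with medians over chromosomes from -0.020 to 0.022.

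More genes were called between conditions with the replicate number in the fit. With the condition alone in the fit the common dispersion was 0.0052 (a biological coefficient of variation of 7.21%), and with the replicate number added it was 0.00201 (4.48%). Genes called between sgZNF507 and EV rose from 40 to 121, and between sgZNF146 and EV from 0 to 33, when the replicate number was a block. At an unadjusted p under 0.05 the counts for sgZNF146 were 535 and 1198. In DESeq2 the same step gave 50 and 63 genes for sgZNF507 and 0 and 0 for sgZNF146.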

How the data were processed

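Reads were clipped by the authors (Fastx Toolkit), freed of ribosomal RNA reads (Bowtie), aligned to hg19 (GRCh37) by TopHat2 and counted per Ensembl gene by featureCounts. The deposited values are raw counts, neither normalised nor pooled, without molecular identifiers. Symbols and positions came from GENCODE release 44 on GRCh37, which matched 96.13% of 57773 identifiers, and promoter windows from RefSeq (GRCh38.p14).

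The test was edgeR 4.0.16 (R 4.3.3) on counts: filterByExpr on the 3 conditions (22010 genes), TMM, glmQLFit with condition and replicate number, and glmQLFTest on the number, written as 2 minus 1, with Benjamini-Hochberg adjustment over all genes at 0.05. CPM use the TMM-adjusted library size. Standard errors are approximate, derived from each gene's F. Principal components used log2(CPM + 0.1). DESeq2 1.42.0 and limma 3.58.1 were alternatives. Adjusted p-values throughout come from these fits. The steps were tested on simulated data.

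Deviations of same-numbered libraries correlated above 0.1 between every pair of conditions, so the numbers, which come from the labels, were taken to pair the libraries. The members and gene lists were chosen with earlier results of these data known. Genes named were, in each direction, the 12 protein-coding and 4 non-coding called genes of largest fold change without overlap between numbers, up to 4 called members of smallest p per list (2 of highest count where none was called), ZNF146 and ZNF507. Others, and the ETS, retinoid, Notch, focal adhesion and Hippo lists, were chosen after their values were seen. A few genes are not reported here. Figures used matplotlib 3.10.9 under Python 3.11.15.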

Additional observations from a re-analysis of the deposited data

Results flagged for a closer look

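Some differences between the numbers had the opposite sign in 1 condition, with values of at least 0.1 in either direction on the log2 scale; whether the conditions differ was not tested. In sgZNF507 the difference was -4.21 for MT-RNR1 and -3.81 for MT-RNR2 (median of both mitochondrial rRNAs -4.01), against positive values in EV and sgZNF146. The median of the 18 mitochondrial tRNAs was 0.14 in sgZNF507, with 10 members higher and 8 lower, and negative in the other 2 conditions. The 2 called members, MT-TF and MT-TV, were lower in every condition, at -1.36 and -2.98 in sgZNF507. MT-TF was at -0.65 in EV and -1.11 in sgZNF146, but MT-TV was at only -0.31 and -0.23 there. MT-TV lost its call in limma voom, without the condition block and with the GC and length correction. With 1 library left out its log2 value ran from -1.12 to -0.29. In sgZNF146, MT-ND6 was at -0.19 and the median of RN7SK and RN7SL2 at -0.5, against positive values in EV and sgZNF507. The median of 8 neuronal genes was 0.15 in sgZNF146 and negative elsewhere.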

How the results depend on the processing

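The count of 1596 called genes (838 higher, 758 lower) fell to 371 in DESeq2 (190 and 181), to 855 without the condition block (460 and 395), to 228 under Bonferroni adjustment (107 and 121) and to 166 past 1.5-fold (78 and 88). The cause of the smaller count in DESeq2, which gave 13272 genes an adjusted p, was not tested. Leaving out 1 library, so that the difference rests on 2 pairs, gave 973 to 1319 genes (467 to 646 higher, 408 to 675 lower), the fewest without sgZNF507 1 (973), sgZNF507 2 (974), sgZNF146 2 (989) or sgZNF146 1 (1001). Other scalings, filters, limma voom and a GC and length correction gave 1545 to 2118. With a mean of at least 100 counts the correlations of within-condition differences were 0.414, 0.457 and 0.447. The replicate block raised the calls between sgZNF507 and EV from 40 to 121 (50 to 63 in DESeq2) and between sgZNF146 and EV from 0 to 33 (0 with and without the block in DESeq2).

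Signs changed with a left-out library for RN7SK (-0.36 to 0.05), RN7SL2 (-0.03 to 0.28), MT-RNR1 (-1.98 to 0.18), MT-RNR2 (-1.81 to 0.17) and ZNF146 (-0.04 to 0.12). Of 117 called genes named, 67 stayed past the threshold without the condition block, and 38 of the 79 that DESeq2 gave an adjusted p did so there. Libraries of 22724439 or more counts leave genes below 1 CPM with few reads, and only 3 pairs bear on each value.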
